A study of Mus musculus with 15 samples.

Results

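The 33 genes of cholesterol synthesis, regulation and transport were followed in neurons that carry the G42 transgene, a green fluorescent protein (GFP) reporter that marks fast-spiking, parvalbumin-class interneurons of the mouse cortex. They were chosen by name: 20 synthesis enzymes, 5 regulators of the sterol regulatory element-binding protein (SREBP) pathway and 8 genes of sterol transport, storage and export. Of the 18193 genes with a single-gene probe set on the array, 9663 were tested, and 30 of the 33 members were among them. A gene was tested where its brightest single-gene probe set read over 5, on the log2 scale, on at least 3 of the 15 arrays. Acat2, a cytosolic thiolase, and Soat1, a sterol-esterifying enzyme, are not analysed here, because no probe set was annotated to them alone. Srebf2, which encodes the SREBP-2 transcription factor, was on the array but stayed between 4.23 and 4.86 on all 15 arrays and was not tested.

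The neurons were picked by hand from the primary somatosensory cortex (S1) of G42 mice on postnatal days (P) 7, 10, 15, 25 and 40, and the protocol gives the oldest group a range up to P45. Each age had 3 arrays of the Affymetrix Mouse Genome type, each from a different animal. All groups carry the same transgene and the labels record no treatment, so the labels separate them by age alone. Each array pooled 23 to 85 cells, and the labels used here do not give strain or sex.

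Cholesterol is made from acetyl-CoA through mevalonate, squalene and lanosterol by a long chain of enzymes. SREBP transcription factors drive the genes of that chain, and the INSIG proteins hold SREBP with its escort SCAP in the endoplasmic reticulum when sterol is plentiful. In the brain, little cholesterol enters from blood. Growing neurons can make their own, mature neurons are thought to take much of it from astrocytes on apolipoprotein E, and neurons remove an excess as 24-hydroxycholesterol or through ABC transporters.

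Gad1, the GABA-synthesizing enzyme, read 13.47 to 15.35 on all arrays, and Slc17a7, the glutamate transporter of excitatory neurons, read at most 2.62. Pvalb, which encodes parvalbumin, read 14.05 to 14.42 at P40, against 3.19 to 4.45 at P7, where this defining marker was thus not over 5. Sst, a marker of another interneuron class, read 9.2 to 13.04 on 14 arrays and 1.72 on P40 replicate 1. P15 replicates 2 and 3 stood apart, with a hybridization spike (BioDn) at 2.48 and 2.47, against at least 10.36 on the other 13 arrays. The gap between 3′ and 5′ actin probe sets, which widens as RNA is shorter, was 3.4 to 4.5 at P40 and 4.64 to 6.41 at P7, and so moved with age.

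Most synthesis enzymes were lower at P40 than at P7. Of the 19 enzymes tested, 11 were lower by limma at an adjusted p under 0.05, 1 was higher and 7 were not called, with a median log2 difference of −1.61. Over all 30 members tested, 14 were lower, 6 were higher and 10 were not called (median −0.56). Among all 9663 genes, 17.6% were called lower and 27.5% higher, with a median of 0.18. Calls in the upward direction made up 61% of all calls on the deposited scale, 51.4% after quantile normalization, 49.4% with equal array medians, 51.6% with the actin gap as a covariate and 33.4% with no filter on low values. The enzymes called lower numbered 12, 12, 13 and 12 in those settings. The arrays of P40 and P7 did not overlap, with P40 lower, for 16 members, the 14 called lower with Pmvk and Apoe, and with P40 higher for the 6 called higher, beside 22.6% and 33.1% of all genes. In pooled cells, fewer cells with a transcript and less transcript per cell cannot be told apart.

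**Figure D1:**
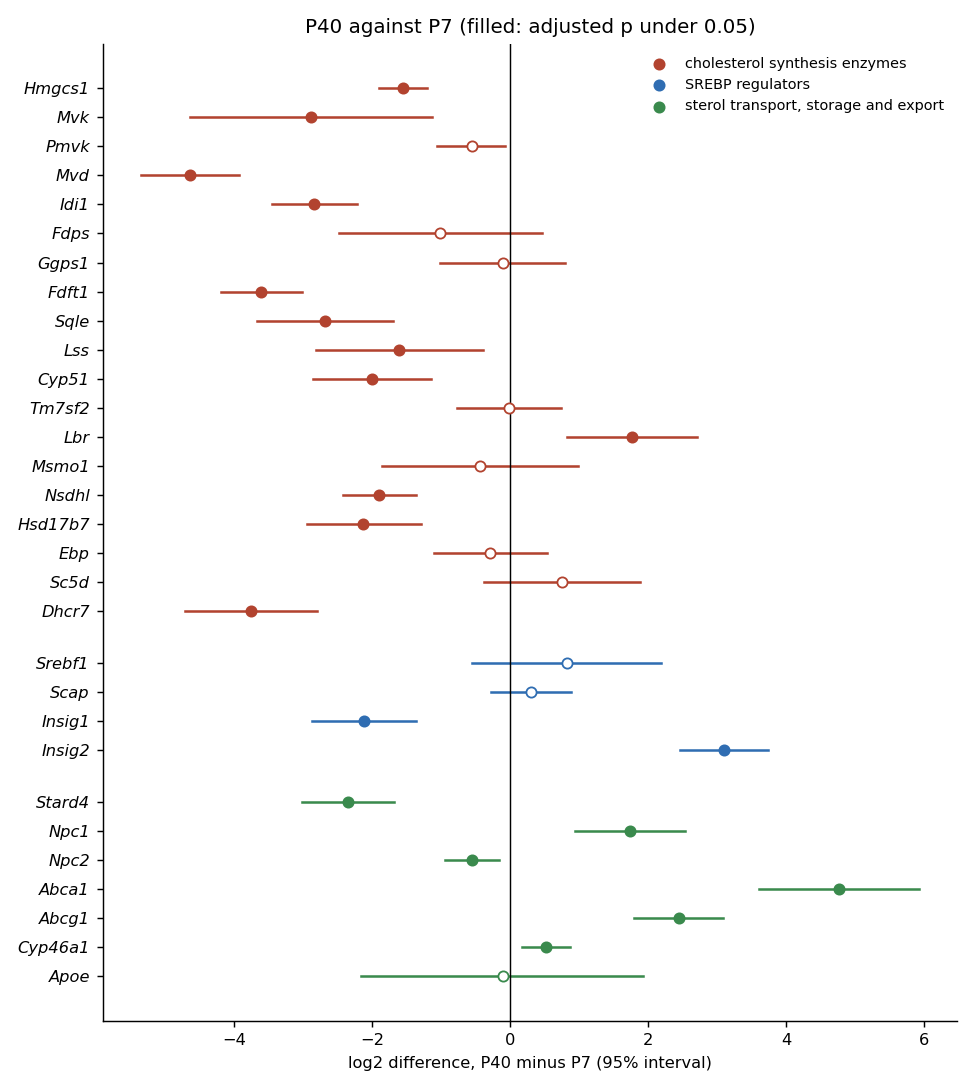
Log2 difference between P40 and P7 for the 30 members tested, with its 95% interval from limma (3 arrays per age). Filled points passed an adjusted p under 0.05, and 11 of the 14 filled points left of 0 are synthesis enzymes.

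The early, mevalonate part of the chain held the largest fall among the 30 members tested, that of Mvd on its brightest probe set. As a mean of probe sets, Dhcr7 (log2 difference −3.76) and Idi1 (−3.01) were lower than Mvd (−2.73). Hmgcs1, at chr13:119690351-119708260 (GRCm38.p6), makes HMG-CoA, the precursor of mevalonate. It read 14.65, 15.16 and 14.95 at P7, then 15.03, 14.66 and 14.38 at P10. At P15 it read 13.97, 13.74 and 13.7, at P25 13.64, 13.6 and 13.73, and at P40 13.25, 13.28 and 13.57. It was thus 2.94-fold lower at P40 than at P7 (log2 difference −1.56, SE 0.16, limma adjusted p 3.7e-06), and the other 4 of its 5 probe sets were lower as well, by log2 differences between −3.58 and −1.05.

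Mvd, mevalonate diphosphate decarboxylase at chr8:122433596-122443422, dropped to background. It read 9.13, 9.58 and 9.33 at P7 and 8.39, 8.31 and 7.44 at P10. It then read 5.23, 6.24 and 5.51 at P15, 5.18, 4.99 and 5.24 at P25, and 4.61, 4.76 and 4.75 at P40. All 3 P40 arrays lay under 5, so the fall was at least 20.4-fold (log2 difference −4.64, SE 0.33, limma adjusted p 1.3e-07). This fall rests on 1 of its 2 probe sets. The other was over 5 on 0 arrays, with a difference of −0.82.

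Idi1, isopentenyl diphosphate isomerase at chr13:8885606-8892396, interconverts the 5-carbon building blocks of sterols. It read 11.99, 11.68 and 11.02 at P7, 11.67, 11.34 and 11.3 at P10, and 10.21, 9.72 and 9.2 at P15. It read 9.68, 10 and 9.56 at P25, and 8.81, 8.48 and 8.87 at P40. The P40 level was 7.17-fold below that of P7 (log2 difference −2.84, SE 0.29, limma adjusted p 3e-06), and a second probe set gave −3.17.

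Mvk, mevalonate kinase, read 4.35, 5.97 and 5.11 at P40, against 8.01, 8.63 and 7.46 at P7. This fall of 7.39-fold (log2 difference −2.89, SE 0.82, limma adjusted p 0.01) ended near background, and its P10 arrays spread over 8.49, 6.37 and 4.43. It was lost with the number of cells picked as a covariate (adjusted p 0.055), was −3.68 with the actin gap as a covariate and −1.77 as a mean of probe sets. The next kinase, Pmvk, read 9.76, 9.64 and 9.62 at P40 and 10.44, 10.03 and 10.23 at P7, a log2 difference of −0.56 that was not called (limma adjusted p 0.06) but was called in 6 of 29 alternatives, among them without P15 replicate 1.

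Fdps and Ggps1 make the farnesyl and geranylgeranyl diphosphates that also serve protein prenylation. Neither was called. Fdps read 4.71, 5.19 and 3.74 at P40, against 7.49, 5.28 and 3.93 at P7, where replicate 1 stood well over the other arrays. Its call appeared with the actin gap as a covariate (log2 difference −2.65) and without P7 replicate 3 (−1.84), while it was −0.05 without P7 replicate 1. Ggps1, on a side branch that leaves the sterol path, read 9.03 to 9.85 at P40 and 8.92 to 9.95 at P7. Its log2 difference was −0.11 with a 95% interval of −1.02 to 0.8, and its sign turned in 5 of 29 alternatives. Its other probe sets over 5 differed in sign, at −0.62 and 1.7.

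At the branch committed to sterols, Fdft1 and Sqle were both lower at P40. Fdft1, squalene synthase at chr14:63145150-63181687, read 12.96, 12.99 and 13.05 at P7 and 11.87, 12.29 and 11.72 at P10. At P15 it read 10.37, 10.17 and 9.72, at P25 10.12, 9.9 and 9.8, and at P40 8.86, 10.06 and 9.24. No P15, P25 or P40 array reached the lowest P10 array, and the P40 level was 12.2-fold below P7 (log2 difference −3.61, SE 0.28, limma adjusted p 2e-07). Its probe set is of a kind that can also bind related sequences, and the other one over 5 gave −2.21, while the mean over all its probe sets was −1.48. Sqle, squalene epoxidase, a slow step of the pathway, read 8.12, 8.23 and 7.99 at P40, against 11.54, 10.63 and 10.23 at P7. That was 6.45-fold lower (log2 difference −2.69, SE 0.47, limma adjusted p 0.00032).

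Among the enzymes that close and trim the sterol rings, Lss, Cyp51, Nsdhl, Hsd17b7 and Dhcr7 were lower at P40. Lss, lanosterol synthase, was the least firm of them: it read 8.19, 8.24 and 7.18 at P40 and 9.87, 9.94 and 8.63 at P7 (log2 difference −1.61, limma adjusted p 0.031). Its call was lost without P7 replicate 1, without P7 replicate 2 or without P40 replicate 3, up to an adjusted p of 0.13. Its difference was −0.93 as a mean of probe sets and −2.47 with the actin gap as a covariate. Cyp51, which removes a methyl group of lanosterol, read 7.05, 6.56 and 6.78 at P40 and 9.29, 8.54 and 8.57 at P7, a 4.01-fold fall (limma adjusted p 0.00096).

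Nsdhl, a dehydrogenase of the C4 demethylation complex, read 8.13, 8.32 and 8.02 at P40, against 10.48, 9.76 and 9.93 at P7. Its fall was 3.73-fold (log2 difference −1.9, SE 0.25, limma adjusted p 3.1e-05). Hsd17b7, the ketoreductase of the same complex, read 8.47, 7.58 and 8.43 at P40 and 9.99, 10.41 and 10.46 at P7, 4.37-fold lower (limma adjusted p 0.00047). Like that of Fdft1, its probe set is of a kind that can also bind related sequences. The other Hsd17b7 probe sets were over 5 on at most 2 arrays, with differences of −0.28, −0.14 and −0.03. Msmo1, the oxidase of that complex, was not called: it read 7.83 to 8.57 at P40 and 7.8 to 9.46 at P7 (log2 difference −0.44, limma adjusted p 0.62), and its P10 arrays ran between 5.76 and 9.07.

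Dhcr7, at chr7:143823167-143848410, catalyses the final reduction to cholesterol from 7-dehydrocholesterol. It read 10.41, 11.04 and 11 at P7, 9.77, 10.17 and 9.31 at P10, and 8.97, 7.7 and 8.54 at P15. It read 7.75, 8.39 and 8.38 at P25, and 5.97, 7.83 and 7.37 at P40. The level at P40 was 13.5-fold below P7 (log2 difference −3.76, SE 0.45, limma adjusted p 1.2e-05), with P40 replicate 1 the lowest of all arrays. With the actin gap or the number of cells as a covariate it was −3.16 or −3.15, both still called.

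The remaining sterol enzymes were not called lower. Lbr, the lamin B receptor of the inner nuclear membrane, which also reduces the C14 double bond, was higher at P40: it read 6.76, 7.06 and 6.25, against 5.69, 5.22 and 3.87 at P7 (log2 difference 1.76, SE 0.44, limma adjusted p 0.0047). With the actin gap as a covariate this call was lost (adjusted p 0.082). Tm7sf2, the dedicated C14 reductase, had a log2 difference of −0.02 with an interval of −0.78 to 0.74, and read 7.79, 6.52 and 7.07 at P25, lower than at the other ages on average. Its moderated F test over the 5 ages had an adjusted p of 0.013. Ebp, the sterol isomerase, had a difference of −0.29 (interval −1.1 to 0.53), and Sc5d, the C5 desaturase, one of 0.75 (interval −0.38 to 1.88). Sc5d was 1.47 without P7 replicate 1, which made it a call, and 0 without P7 replicate 3.

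**Figure D2:**
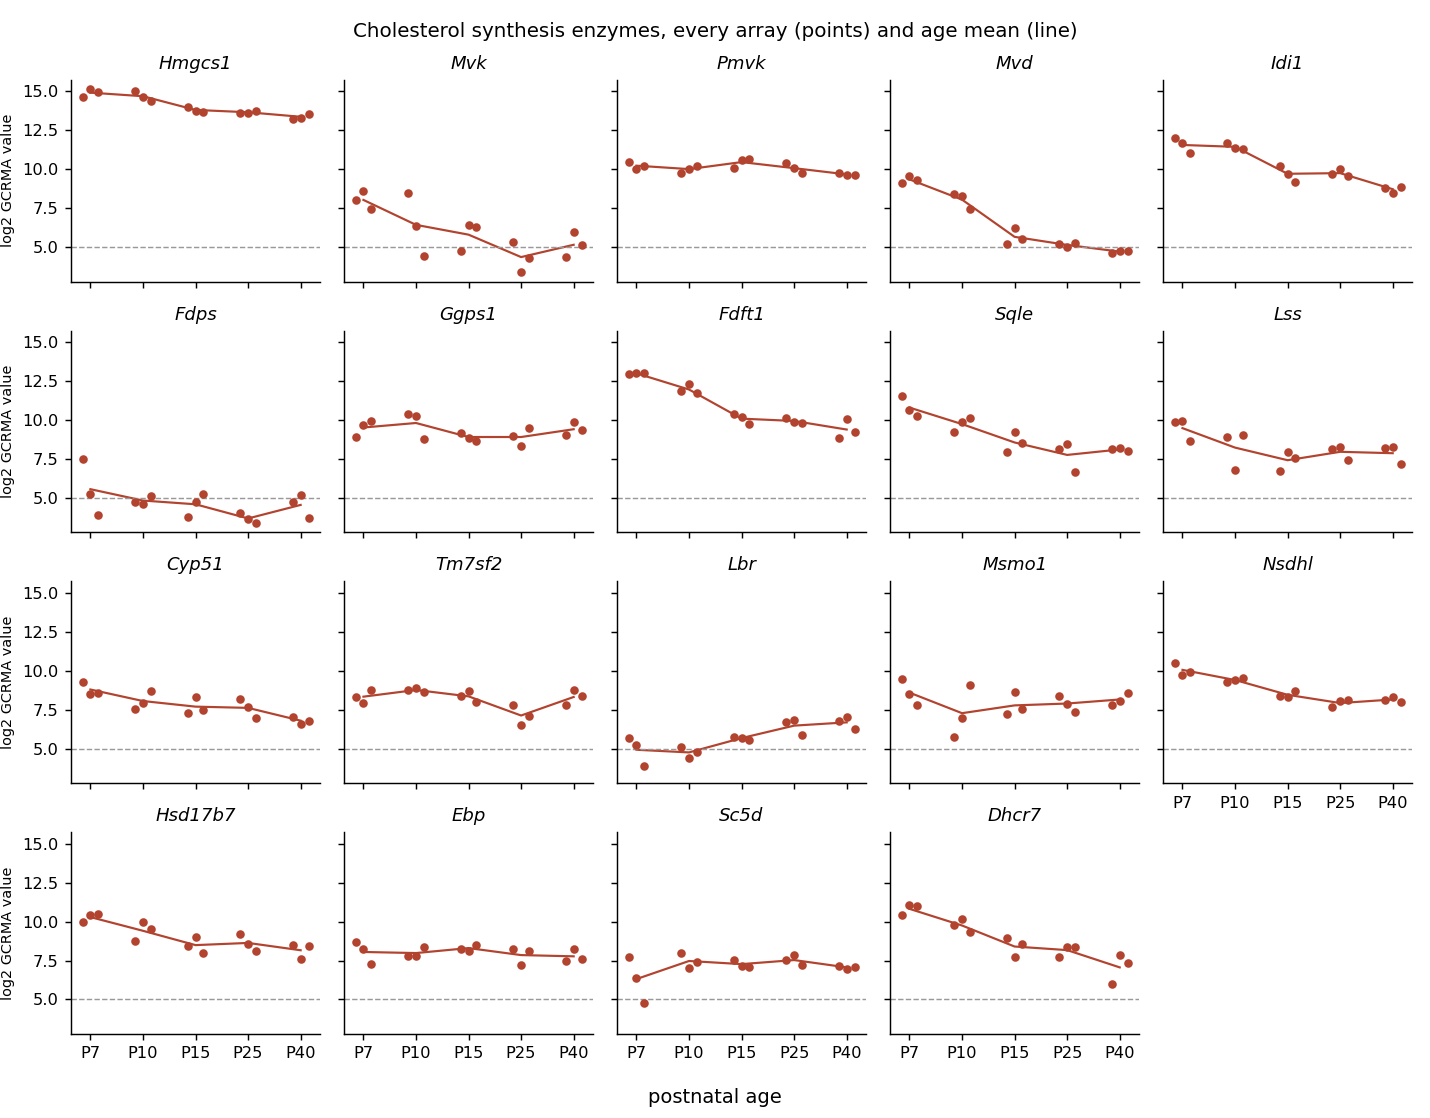
Log2 GCRMA value of the 19 synthesis enzymes tested, by postnatal age, with 1 point per array, the age mean as a line and the limit of 5 dashed. The means of Mvd, Fdft1 and Dhcr7 descend at each age, whereas the P40 and P7 arrays of Ggps1, Tm7sf2, Msmo1 and Ebp overlap and Lbr is higher at P40.

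The upstream sequences of Hmgcs1, Mvd and Idi1 are shown because these genes of the early part of the chain were all called lower. Pmvk, of the same part, was not called. They are the 250 bases before the first listed transcription start in RefSeq (GRCm38.p6), written 5′ to 3′. Capitals mark the letters CCAAT, the core bound by NF-Y, a partner of SREBP, or its reverse ATTGG, and the letters TCACNCCAC, a sterol regulatory element.
Hmgcs1: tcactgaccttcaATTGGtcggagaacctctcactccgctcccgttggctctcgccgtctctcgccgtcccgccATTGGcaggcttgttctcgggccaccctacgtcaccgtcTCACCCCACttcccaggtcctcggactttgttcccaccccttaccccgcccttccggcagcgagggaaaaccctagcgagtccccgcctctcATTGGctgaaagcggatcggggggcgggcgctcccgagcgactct
Mvd: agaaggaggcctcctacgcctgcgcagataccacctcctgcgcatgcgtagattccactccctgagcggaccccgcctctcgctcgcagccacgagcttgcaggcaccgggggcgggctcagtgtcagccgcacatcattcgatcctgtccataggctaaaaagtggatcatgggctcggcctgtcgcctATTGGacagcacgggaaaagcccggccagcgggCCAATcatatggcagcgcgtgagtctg
Idi1: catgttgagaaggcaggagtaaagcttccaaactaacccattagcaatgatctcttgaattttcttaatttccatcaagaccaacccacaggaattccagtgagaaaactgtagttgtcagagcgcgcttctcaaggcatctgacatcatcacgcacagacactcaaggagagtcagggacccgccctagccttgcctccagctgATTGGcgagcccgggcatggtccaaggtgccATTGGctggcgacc
They lie at chr13:119690101-119690350 (plus strand), chr8:122443423-122443672 (minus strand) and chr13:8885356-8885605 (plus strand).

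Hmgcs1 held 3 CCAAT matches before the start and the element TCACCCCAC, 137 bases before it. Mvd and Idi1 held 2 CCAAT matches each and no match to the element's letters. Promoters on chromosome 18, which holds Stard4 and Npc1, were not counted. In windows of 300 bases, 250 before and 50 after each start, and counting both strands, 24 of the 30 members tested had a listed promoter. Fdps, Fdft1, Sqle, Abcg1, Stard4 and Npc1 are therefore not described. CCAAT was present for 16 of the 16 enzyme genes listed, in 16 of their 19 promoters (84.21%), against 37.41% of all 32851 promoters counted. By gene the share was 43.17% over the tested genes with a listed promoter. The letters GGGCGG, an Sp1 core, were present for 14 of those 16 enzyme genes and for 71.44% of the tested genes. TCACNCCAC was present in 1 of the 19 enzyme promoters and in 1.24% of all promoters. CCAAT was held alike by enzymes that were lower and by enzymes that were not, Ebp, Ggps1 and Lbr among them. A match describes letters, and its part in these levels was not tested.

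Of the 4 regulators tested, Insig1 was lower at P40, Insig2 was higher and the others were not called, with a median log2 difference of 0.56. Insig1 and Insig2 encode related proteins that retain SCAP in the endoplasmic reticulum, and Insig1 is itself a known SREBP target. Insig1, at chr5:28071412-28078662, read 9.64, 10.58 and 9.58 at P7, 10.09, 9.33 and 9.44 at P10, and 8.39, 8.34 and 7.62 at P15. It read 8.87, 8.96 and 8.37 at P25, and 7.34, 8.26 and 7.83 at P40. Every array from P15 on lay below every earlier one, and the P40 level was 4.35-fold below P7 (log2 difference −2.12, SE 0.35, limma adjusted p 0.00024).

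Insig2, at chr1:121304353-121332662, went the other way. It read 8.59, 8.53 and 8.59 at P7 and 8.54, 9.83 and 9.88 at P10. It read 10.84, 10.78 and 10.86 at P15, 11.66, 12.13 and 11.5 at P25, and 11.92, 11.61 and 11.48 at P40. It was 8.57-fold higher at P40 than at P7 (log2 difference 3.1, SE 0.3, limma adjusted p 1.9e-06), and its 3 probe sets gave 3.1 to 3.53. The upstream sequences of this pair are shown for their opposite courses, with the same capitals.
Insig1: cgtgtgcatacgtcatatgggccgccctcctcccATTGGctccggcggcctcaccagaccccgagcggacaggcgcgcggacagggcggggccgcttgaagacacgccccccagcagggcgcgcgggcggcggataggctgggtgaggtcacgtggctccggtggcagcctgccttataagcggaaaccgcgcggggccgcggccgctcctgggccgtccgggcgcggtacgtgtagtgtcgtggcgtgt
Insig2: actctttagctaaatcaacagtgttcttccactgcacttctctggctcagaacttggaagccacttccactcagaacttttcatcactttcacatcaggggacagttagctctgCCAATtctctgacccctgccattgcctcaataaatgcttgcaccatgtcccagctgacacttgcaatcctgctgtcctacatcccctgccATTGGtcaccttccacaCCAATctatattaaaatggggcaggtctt
Insig1 lies at chr5:28071162-28071411 (plus strand) with 1 CCAAT match, and the first listed Insig2 start at chr1:121332590-121332839 (minus strand) with 3 matches. The table lists 3 starts for Insig2, and the windows of the other 2 held no CCAAT.

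Srebf1, which encodes SREBP-1 and is better known for fatty acid synthesis, differed among the ages (moderated F test, adjusted p 0.0037). It read 5.17, 7.5 and 5.2 at P7, 3.45, 5.02 and 3.99 at P10, and 5.52, 3.44 and 4.56 at P15. It read 7.08, 7.23 and 7.19 at P25, and 6.84, 7.41 and 6.07 at P40. All P25 and P40 arrays lay above all P10 and P15 arrays. P7 replicate 2 lay among the late ones, and P40 minus P7 was not called (log2 difference 0.82, limma adjusted p 0.32), although without that array it was 1.59 with an adjusted p of 0.046. Scap read 10.28, 10.73 and 10.2 at P40, against 10.12, 10.48 and 9.7 at P7, a difference of 0.3 with an interval of −0.28 to 0.88. Both Srebf2 probe sets stayed at or under 5 on every array. A probe set at background may miss a transcript that is present, so the arrays give no level for this factor.

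Among the transport and export genes, 4 of the 7 tested were higher at P40, 2 were lower and Apoe was not called, with a median log2 difference of 0.52. Both efflux transporters were higher. Abca1, at chr4:53030789-53159988, passes cholesterol and phospholipid to apolipoproteins. It read 4.05, 4.53 and 4.35 at P7, 5.38, 5.16 and 5.48 at P10, and 5.12, 7.98 and 5.6 at P15. It read 7.41, 8.33 and 8.0 at P25, and 9.12, 8.96 and 9.15 at P40. All P7 arrays lay under 5, so it was at least 16.9-fold higher at P40 (log2 difference 4.77, SE 0.54, limma adjusted p 8e-06). This rise rests on 1 of its 3 probe sets. The others were over 5 on 0 arrays, with differences of −0.07 and −0.19. P15 replicate 2 was well above the other P15 arrays. CCAAT was present for 2 of the 4 transport genes with a listed promoter, Cyp46a1 and Npc2, and for 3 of the 4 regulators. Over the tested genes that share was 43.17%. The Abca1 upstream sequence, at chr4:53159896-53160145 (minus strand), is shown beside those above as 1 that held neither CCAAT nor the element's letters.
Abca1: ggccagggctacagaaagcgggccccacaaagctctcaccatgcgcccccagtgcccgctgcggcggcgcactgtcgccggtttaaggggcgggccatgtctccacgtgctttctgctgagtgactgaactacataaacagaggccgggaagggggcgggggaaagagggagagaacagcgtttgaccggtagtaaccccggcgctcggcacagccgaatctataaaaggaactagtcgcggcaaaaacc

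Abcg1, at chr17:31057694-31117984, passes cholesterol to lipoprotein particles. It read 8.36, 7.64 and 8.4 at P7, and 9.4, 8.73 and 8.31 at P10. By P15 it read 9.13, 9.75 and 9.33, by P25 9.81, 9.84 and 10.12, and by P40 10.51, 10.49 and 10.71. It was 5.42-fold higher at P40 than at P7 (log2 difference 2.44, SE 0.3, limma adjusted p 1.6e-05), and each mean was above the one before it. Cyp46a1, the neuronal 24-hydroxylase that turns cholesterol into an exportable oxysterol, read 12.09, 12.65 and 12.29 at P40, against 11.7, 11.72 and 12.06 at P7. Its 1.43-fold rise (limma adjusted p 0.018) was lost in 7 of 29 alternatives, among them quantile normalization, equal array medians and the omission of P7 replicate 1, P7 replicate 2 or P40 replicate 2, up to an adjusted p of 0.22.

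Of the lysosomal pair, Npc1 was higher at P40, while the fall of Npc2 was small and not firm. Npc1, the membrane protein that exports cholesterol from lysosomes, read 8.39, 8.95 and 9.23 at P40, against 6.95, 6.99 and 7.41 at P7, 3.34-fold higher (log2 difference 1.74, SE 0.38, limma adjusted p 0.0017). Npc2, the soluble lysosomal protein that hands it cholesterol, read 10.94, 11.26 and 10.74 at P40 and 11.47, 11.47 and 11.65 at P7. Its 1.46-fold fall (limma adjusted p 0.024) was lost in 7 of 29 alternatives, among them without P7 replicate 3, P40 replicate 1 or P40 replicate 3. Of its 3 probe sets over 5, 1 that was over 5 on all 15 arrays gave −0.05. Another, over 5 on 3 arrays, ran the other way (0.2). Stard4, a soluble sterol carrier and known SREBP target, read 9.0, 8.77 and 8.75 at P7, 8.88, 8.41 and 8.26 at P10, and 6.51, 6.14 and 6.24 at P15. It read 7.41, 7.03 and 6.75 at P25, and 7.1, 6.1 and 6.27 at P40, 5.1-fold below P7 (log2 difference −2.35, SE 0.31, limma adjusted p 3.3e-05).

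Apoe, the main lipid carrier of the brain and chiefly a glial product, was over 5 on 3 arrays: 5.49 on P10 replicate 3, 5.3 on P25 replicate 1 and 7.12 on P25 replicate 2. Elsewhere it read at most 2.43. The summed level of 12 astrocyte markers, led by Slc4a4, was 10.47, 9.52 and 10.72 on those arrays, within its range of 8.18 to 10.99 on the other 12. Single markers ran differently: Gja1 read 9.02, 3.73 and 9.65 there, and Slc1a2 8.47, 7.23 and 6.98. On P10 replicate 2, where Apoe was 2.43, Gja1 and Slc1a2 both read 8.55. Apoe at P40 read 2.15 to 2.18, against 2.2 to 2.37 at P7, all background.

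**Figure D3:**
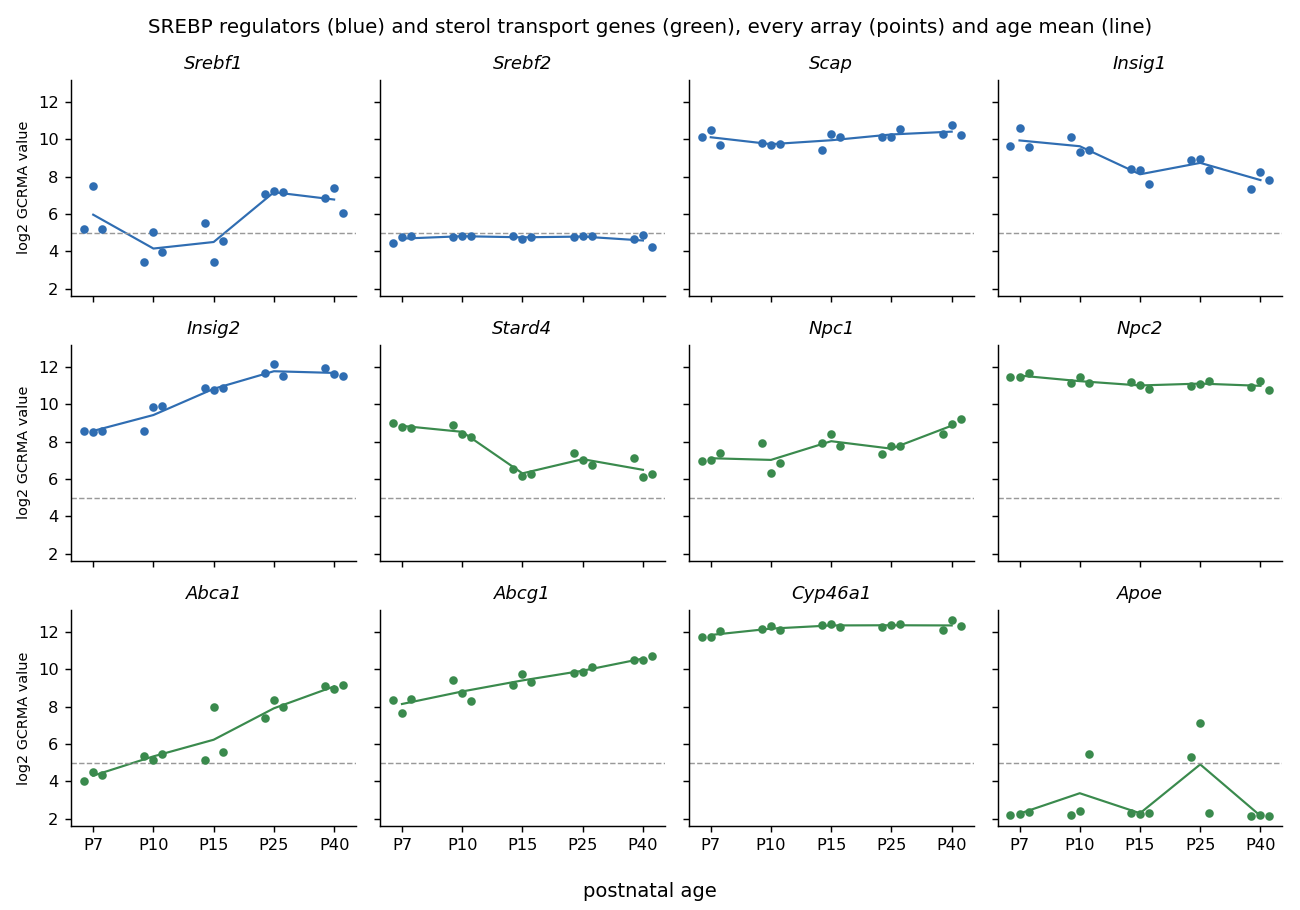
Log2 GCRMA value of 5 SREBP regulators (blue) and 7 transport genes (green) by postnatal age, with 1 point per array, the age mean as a line and the limit of 5 dashed. Insig1 and Stard4 are lower from P15 on, Insig2, Abca1 and Abcg1 climb, Srebf2 lies under 5 on all 15 arrays, and Apoe exceeds 5 on 3.

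Between neighbouring ages, most calls fell between P10 and P15. From P7 to P10 1 member was called, Mvd, which was lower (2.46-fold, limma adjusted p 0.043), a call lost without any 1 of P7 replicates 2 and 3, P10 replicate 2, P15 replicate 3, P40 replicate 3 or the P25 arrays. In that step 1.23% of all genes were called lower and 2.37% higher. From P10 to P15, 7 members were lower and 1 was higher, beside 2.79% and 8.57% of all genes. The lower ones were Mvd (5.23-fold), Stard4 (4.66-fold), Fdft1 (3.66-fold), Idi1 (3.31-fold), Insig1 (2.84-fold), Nsdhl (1.93-fold) and Hmgcs1 (1.84-fold), and Insig2 was 2.65-fold higher, with limma adjusted p between 0.0012 and 0.028.

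This step rests in part on the P15 arrays that stood apart. Without P15 replicates 2 and 3, leaving 1 array at P15 that is assumed to vary like the other ages, Mvd was the only member called (log2 difference −2.82, limma adjusted p 0.015). The other 7 kept their sign, from −2.01 for Stard4 to 1.42 for Insig2. Without P15 replicate 2 alone 5 members were called. With P15 replicate 1 left out instead, each of the 8 was called, at adjusted p up to 0.045 (Nsdhl). The actin gap was 3.99 and 3.54 on P15 replicates 2 and 3, against 5.97 on P15 replicate 1 and 5.34 to 6.09 at P10. With that gap as a covariate 4 members were called, and with the number of cells picked 2, with the sign of all 8 kept. Hmgcs1 was −0.69 and −0.63 in those fits (−0.88 without a covariate), Mvd −2.42 and −2.17 (−2.39), Insig1 −1.29 and −1.47 (−1.5), Nsdhl −1.12 and −1.02 (−0.95) and Insig2 1.44 and 1.13 (1.41).

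From P15 to P25, Srebf1 was the member called, and it was higher (log2 difference 2.66, SE 0.65, limma adjusted p 0.029), while 2.37% of all genes were called higher and 2.49% lower. That call was lost without P15 replicate 3 or without P25 replicate 2. From P25 to P40 no member was called by limma, and 0.404% of all genes were higher and 0.269% lower. An unadjusted p under 0.05 was reached in that step by 8 members and by 11.5% of all genes, with Idi1, Dhcr7, Insig1 and Apoe lower at P40 and Tm7sf2, Npc1, Abca1 and Abcg1 higher. With array weights 6 members were called there. Across all 5 ages, the moderated F test called 19 of the 30 members, beside 47.2% of all genes.

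Of the 11 enzymes lower at P40, 8 made their largest downward step between P10 and P15. Mvk and Lss made theirs between P7 and P10, and Cyp51 between P25 and P40. Of the 8, Sqle, Hsd17b7 and Dhcr7 were not called in that step (limma adjusted p 0.11, 0.13 and 0.061). Sqle (−1.17) and Hsd17b7 (−0.92) fell nearly as much from P7 to P10 (−1.07 and −0.88). The steps also differ in their number of days. Largest steps and shares covered by P15 were not computed over all genes. The step from P10 to P15 also held the most calls over all genes (8.57% higher and 2.79% lower). By P15 these 11 had covered a median of 79.5% of their net log2 difference, with a range of 55.5 to 128.6%, and 5 of them went down in all 4 steps. Among the 4 transport genes that were higher, the median share by P15 was 52.2%, with a range of 40.3 to 100%, which overlaps that of the enzymes.

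The array medians of each group, after each gene was centred on its own mean, followed the ages as follows. The enzyme median was 1.08 ± 0.39 on the P7 arrays and 0.56 ± 0.07 on the P10 arrays (SD, n = 3 arrays at each age). It was −0.24 ± 0.23 by P15, −0.53 ± 0.16 by P25 and −0.59 ± 0.17 by P40. No array at P15 or later reached the lowest P10 array, while P25 and P40 overlapped. The transport median was −0.61 ± 0.26 on the P7 arrays, −0.25 ± 0.28 by P10, −0.12 ± 0.29 by P15, 0.1 ± 0.06 by P25 and 0.14 ± 0.28 by P40. The 4 regulators, pulled by Srebf1 and by Insig genes of opposite course, read 0.12 ± 0.82, −0.69 ± 0.35, −0.34 ± 0.21, 0.73 ± 0.1 and 0.6 ± 0.34 from P7 to P40. Over all genes the age means stayed between −0.12 and 0.11.

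**Figure D4:**
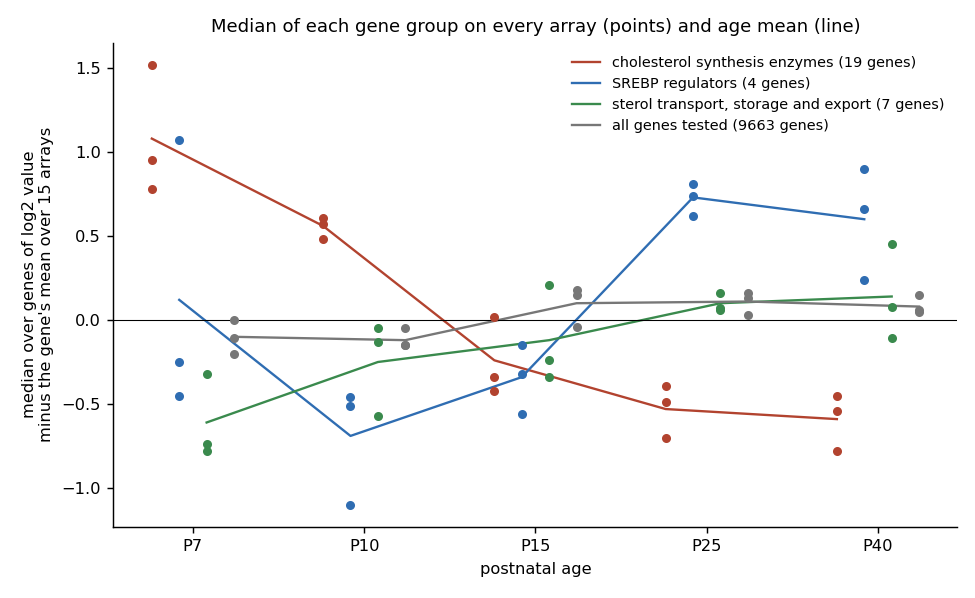
Median over the genes of each group of the log2 value minus that gene's mean over 15 arrays, by postnatal age, with 1 point per array and the age mean as a line. The enzyme median is highest on the 3 P7 arrays (0.78 to 1.52) and lowest at P25 and P40, while all genes tested stay near 0.

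Markers of other cells were read on the same arrays. The summed level of 10 markers of oligodendrocytes, cells rich in cholesterol synthesis, was 9.77 to 10.04 at P40, against 10.78 to 11.1 at P7, on the log2 scale, and so moved with the enzymes. Cnp led that sum by its mean over the 15 arrays. Of the 10 markers, 4 were over 5 on any array, and Mog, Mag and Cldn11 never were. Cnp read 8.74 to 9.72 at P40 and 10.57 to 11.01 at P7, whereas Mbp read 5.09 to 7.81 and 6.2 to 7.26. At P25 the sum was higher, at 11.13 to 12.27, while the enzyme median was −0.7 to −0.39. Mbp was then above Cnp, at 10.48 to 11.58 against 9.07 to 10.39. The sum of 12 astrocyte markers was 9.08 to 10.54 at P40 and 8.65 to 10.85 at P7, with Gfap, Gjb6 and Mlc1 never over 5. Slc4a4, over 5 on all 15 arrays, led this sum. Slc1a2 ran differently, at 3.49 to 3.51 at P40, 3.89 to 5.79 at P7 and 8.3 to 8.55 at P10. The sum of 9 microglial markers was 6.32 to 6.48 at P40 and 6.78 to 7.64 at P7, with 2 of the 9 over 5 on any array. The part of these cells in the members' levels was not tested.

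Genes next to the pathway gave the following counts at P40 against P7, each list written by function and with the members' earlier results known. Beside them, 17.6% of all genes tested were lower and 27.5% higher, with a median of 0.18. Of 14 fatty acid synthesis genes tested, which SREBP also serves, 8 were lower and 3 higher (median −0.56). Fatty acid synthase, Fasn, was lower (log2 difference −1.82, limma adjusted p 9.2e-06), as was the glycerol acyltransferase Gpam (−2.34), whereas the acetyl-CoA synthetase Acss2 (2.26) and the phosphatidate phosphatase Lpin1 (2.1) were higher. Of 11 genes for SREBP cleavage, sterol-sensing degradation and cofactors, 2 were higher and 1 lower, both smaller shares than among all genes. The proteases that release SREBP differed in sign, Mbtps1 at 1.03 (limma adjusted p 0.009) and Mbtps2 at −0.8 (limma adjusted p 0.013).

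Of 21 sterol transfer and oxysterol genes, 10 were higher and 3 lower (median 0.76), among them the oxysterol-binding relatives Osbpl1a (1.42) and Osbpl9 (1.74). Of 7 lipoprotein receptor and lysosomal release genes, 3 were lower and 1 higher. The HDL receptor Scarb1 (−3.08) and the reelin and apolipoprotein E receptor Lrp8 (−2.25) were lower, and Lipa, the lysosomal acid lipase (1.33), was higher. Of 3 LXR and RXR genes tested, Rxra, a partner of the sterol-sensing LXR receptors, was higher (1.88, limma adjusted p 5e-04) and the LXR target Lpcat3 lower (−1.48). Of 12 genes that use isoprenoids for prenylation, dolichol or ubiquinone, 3 were higher (median 0.72). That share is no larger than among all genes (27.5%).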

How the data were processed

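RNA of hand-picked G42 GFP-labelled neurons was measured on 15 arrays, 3 per age, each from a different animal. The deposited log2 values, 1 per probe set, were made by the authors with GCRMA, per the submitters' processing notes, and its version is not given in the sources used here. Cells were lysed, and RNA was amplified in rounds of T7 transcription, per the labels' protocols, which favours 3′ ends. The number of arrays limits the precision. Values were used as deposited.

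The platform annotation gave 1 gene for 34945 of the 45101 probe sets, several for 932 and none for 9160, beside 64 controls. Each gene was read from the brightest of its single-gene probe sets, by the mean of the 15 arrays, and was tested if that set exceeded 5 on at least 3 arrays. Probe sets were named from the platform's annotation, and symbols and coordinates were taken from RefSeq (GRCm38.p6) through gene IDs, which matched for 31 members.

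Limma 3.58.1 in R 4.3.3 fitted a means model over the 5 ages with eBayes moderation and a trended prior, on 10 residual degrees of freedom (median prior 4.85). The two-sided p of each contrast was adjusted by Benjamini-Hochberg over 9663 genes, and under 0.05 it made a call. The fit was tested on simulated data. SE is the moderated standard error and ± is the SD over 3 arrays. A fold needed both means over 5. If no array of an age exceeded 5, a bound is given, the other age's mean against 5. Plots were made in matplotlib 3.10.9, with pandas 2.3.3 and Python 3.11.15.

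The members and lists were chosen with earlier results of these data known. Every member could be named, and at most 2 called genes per direction of each other list, those with the smallest adjusted p. Of the markers, Pvalb, Gad1, Slc17a7, Sst and the brightest gene of each list were to be named. Gja1, Slc1a2 and Mbp were named after their values were seen. The alternatives were other scalings, filters, probe set means, a prior without trend, array weights, covariates, a replicate block and the omission of arrays.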

Additional observations from a re-analysis of the deposited data

How the results depend on the processing

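Of the 20 members called at P40 against P7, 15 kept their call in each of up to 29 alternatives. Abca1 and Hsd17b7 are among these, with 28 alternatives each. As a mean of probe sets they did not pass the filter, so that setting gave them no test. Of the 20, 5 (Mvk, Lss, Lbr, Npc2 and Cyp46a1) lost their call in some alternative, and none changed sign. Among the 10 members not called, 4 gained a call in some setting and 6 changed sign. Ggps1 changed sign as a mean of probe sets (0.14), with the actin gap (0.27) or the number of cells (0.44) as a covariate, without P7 replicate 3 (0.1) and without P40 replicate 1 (0.08), and ranged from −0.41 with 1 array left out. Tm7sf2 did so with array weights (0.06), with the number of cells (0.13), and without P7 replicate 3 (0.21) or P40 replicate 1 (0.22), and ranged from −0.23 with 1 array left out. With the actin gap Scap became −0.08 and Apoe 0.04. With 1 array left out, Ebp ranged from −0.68 to 0.02 (without P7 replicate 1) and Sc5d from 0 (without P7 replicate 3) to 1.47. The cause was not tested.

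The genes called at P40 against P7 numbered 4365, but 8295 with no filter and 2652 with the actin gap as a covariate. Members called between P10 and P15 numbered 8, but 15 with array weights, 4 with the actin gap, 2 with the number of cells, 2 with only those ages fitted, and 1 without P15 replicates 2 and 3, with or without P25 replicate 2 as well, a setting added after seeing the data. The 1 member called between P7 and P10 became 0 with equal medians, no filter, probe set means, array weights, only those ages fitted, the replicate block, and the omission of the P15 and P25 arrays, and 2 with a floor at 5. The 1 called between P15 and P25 became 0 with no filter, the actin gap or the number of cells, 7 with array weights and 2 with only those ages fitted. The 0 called between P25 and P40 became 3 with no filter and 6 with array weights.

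With 1 array left out at a time, members lower at P40 ranged over 12 to 15, higher 5 to 6, enzymes lower 10 to 12, and genes called 3490 to 4535. Members called ranged over 0 to 2 from P7 to P10, 5 to 10 from P10 to P15, 0 to 2 from P15 to P25, 0 to 1 from P25 to P40 and 18 to 23 by the F test.

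Replicate numbers did not pair the arrays: same-numbered arrays of different ages had correlations of their deviations between −0.4 and 0.27, with 3 of 30 over 0.1. Between differently numbered arrays they ran from −0.35 to 0.52, with 12 of 60 over 0.1. Some arrays of different ages thus shared deviations that the replicate block does not take up. With the replicate block, 14 members were lower and 6 higher, and no member's call at P40 against P7 changed.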
